A study of Mus musculus with 12 samples.

Results

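Foxl2, the Iroquois genes Irx3 and Irx5, and Cst12 are 4 of the 32285 genes counted in single-cell RNA sequencing (scRNA-seq) libraries of mouse gonads. They were picked by gene symbol and chosen by their levels in these same libraries, in which their differences between groups were already known. Their levels, fold changes and co-detection are therefore given as descriptions, with their spread and without p-values. Tests are given for other genes. Gonads were taken at E12.0 (days of embryonic development), at 23 ± 3 tail somites (20 to 26), and separated from the mesonephros. There were 12 libraries, 2 for each of 6 groups: XX WT, XX -KTS KO, XX +KTS KO, XY WT, XY -KTS KO and XY +KTS KO. All were on a mixed B6CBAF1/JRj background. Wt1 is spliced with or without codons for the residues KTS between zinc fingers of its protein. Embryos homozygous for the -KTS allele could not make the -KTS form (-KTS KO), and embryos homozygous for the +KTS allele, a model of Frasier syndrome, could not make the +KTS form (+KTS KO). These alleles were constitutive, so every cell of the embryo carried them, and gonads of several embryos were pooled in the -KTS KO libraries, except in XX -KTS KO replicate 1. The 3′ counts do not separate the 2 forms of Wt1, which had between 159 and 310 CPM (UMIs per 1000000 UMIs of the cells summed) in all 12 libraries.

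Pre-granulosa cells are the supporting cells of the fetal ovary, and Sertoli cells are those of the fetal testis. Both arise from a common pool of supporting precursors that descend from the coelomic epithelium. Foxl2 encodes a forkhead transcription factor that is an early marker of pre-granulosa cells and is needed in adult granulosa cells to keep them from turning into Sertoli-like cells. Irx3 and Irx5 encode homeodomain transcription factors of the TALE class, lie in the same gene cluster and act in ovarian follicles, where their loss disturbs contacts between granulosa cells and oocytes. Cst12 belongs to a group of cystatin genes, relatives of secreted inhibitors of cysteine proteases, several of which are expressed in the epididymis and testis.

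Foxl2 (ENSMUSG00000050397) lies on the plus strand at chr9:98955288-98958543, and Cst12 (ENSMUSG00000027443) on the plus strand at chr2:148789361-148793546 (GRCm38, GENCODE M21). Irx3 (ENSMUSG00000031734) lies on the minus strand at chr8:91798525-91802067, and Irx5 (ENSMUSG00000031737) on the plus strand at chr8:92357625-92376286. Promoter windows of 300 bases (250 before and 50 after the RefSeq gene start, GRCm38.p6) were held for Foxl2, Irx3 and Cst12. They were searched on both strands for GCGGGGGCG (an EGR and WT1 type site), GGGCGG (a GC box), GTAAACA (forkhead), AAGGTCA (NR5A1 monomer site) and AGATAA, which zinc finger factors such as GATA4 bind. TCAAGGT, which an extended NR5A1 site begins with, was added after the Cst12 sequence had been read, and overlaps AAGGTCA where both occur. Foxl2 and Cst12 are shown because both were near 0 in the -KTS KO libraries. The Foxl2 window held 2 GC boxes, at chr9:98955399-98955404 and chr9:98955409-98955414 on the gene strand, inside the GENCODE gene model. Capitals mark the match:

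Foxl2 GC box 1: actggcctGGGCGGggaggggc

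Foxl2 GC box 2: gcggggagGGGCGGcggggccg

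The Cst12 stretch runs from chr2:148789115-148789360 on the plus strand and ends at the base before the GENCODE start of the gene. Its TCAAGGT, in capitals, lies at chr2:148789229-148789235 and begins at position -136 from the RefSeq start:

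Cst12: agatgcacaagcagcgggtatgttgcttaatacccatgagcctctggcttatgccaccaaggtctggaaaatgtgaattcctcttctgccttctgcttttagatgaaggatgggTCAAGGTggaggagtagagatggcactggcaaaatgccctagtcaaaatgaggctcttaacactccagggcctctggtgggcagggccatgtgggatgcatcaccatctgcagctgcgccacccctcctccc

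Of 32851 promoter windows of the same length, 35.7% held GGGCGG and 3.5% held TCAAGGT. GCGGGGGCG was held by 2.91%, GTAAACA by 3.65%, AAGGTCA by 4.72% and AGATAA by 11.2%, and none of these 4 was in the windows of Foxl2, Irx3 or Cst12. The Irx3 window held no match to any of the 6 motifs. These matches are letters in a window, and binding was not measured.

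Libraries held between 108111924 and 147968666 UMIs. Of 103730 barcodes, 76066 cells were kept, and 65464 of these were counted as gonadal somatic cells after germ-like, blood-like, endothelial-like, immune-like and mesonephric duct-like clusters were set aside. They still held 3733 mesonephric mesenchyme-like cells, which were 11.6% to 19.9% of the -KTS KO libraries and 0.0216% to 8.93% of the others, and the 68 cells of cluster 33, which was led by muscle genes. Without both, no fold change of the 4 genes changed sign in any of the 6 comparisons. They had a median of 12866 UMIs. Within them, 26961 cells in 10 clusters formed the supporting lineage. A cluster joined it with at least 3 raised markers of pre-granulosa, pre-supporting or Sertoli cells, even if it could not be named. Clusters 0, 6, 14, 22 and 25 of the lineage stayed unnamed. The clusters were drawn without the 4 genes and named from markers that do not include them. In 6 libraries labelled XX, Xist stood at 537 to 751 CPM, and in those labelled XY at no more than 0.177 CPM. Nr5a1, a marker of gonadal somatic cells, had 12.2 to 83.7 CPM in all libraries. One library stood apart in immediate early genes. XY +KTS KO replicate 1 had 626 CPM of the immediate early gene Fos against 47.4 to 140 in the other 11, and 298 CPM of Egr1 against 27.1 to 62.0. Cluster 9, with 3006 cells, held 2931 cells of this library. It was also the library with the most tail somites in the study's sample list. The part of these differences in the results was not tested, so values without this library are given beside those that rest on it. XY +KTS KO replicate 2 differed in another way. It had 8.93% mesonephric mesenchyme-like cells and 67 of the 68 cells of cluster 33. It also had 66 of the 70 cells of cluster 32, named mesonephric duct-like and set aside. Between libraries, 1329 barcode sequences occurred more than once, and any pair of libraries shared 6 to 46.

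Foxl2 was high in XX WT and in +KTS KO gonads of both sexes, low in XY WT and nearly absent in -KTS KO gonads. In summed gonadal somatic cells, XX WT libraries had 19.3 and 24.1 CPM of Foxl2, and XY WT libraries had 0.530 and 1.62. XX -KTS KO libraries had 0.295 and 0.375 CPM and XY -KTS KO libraries 0.0986 and 0.0878, which were 24, 20, 7 and 7 UMIs in all. XX +KTS KO libraries had 14.4 and 6.74 CPM and XY +KTS KO libraries 35.6 and 8.60. Both +KTS KO groups lay wholly above XY WT and every -KTS KO library, and XY +KTS KO replicate 1 exceeded both XX WT libraries. In such sums, fewer cells expressing a gene and less RNA of it per cell cannot be told apart.

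Irx3 followed a different order, in which -KTS KO gonads of both sexes lay between XX WT and XY WT. XX WT libraries had 60.4 and 63.4 CPM and XY WT libraries 1.86 and 3.60. XX -KTS KO libraries had 10.9 and 14.01 CPM, and XY -KTS KO libraries had 14.4 and 9.03. XX +KTS KO libraries had 14.1 and 3.87 CPM, and XY +KTS KO libraries had 55.2 and 6.12. All XX libraries with either mutation were below XX WT and all mutant libraries were above XY WT.

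Irx5, the least abundant of the 4 in XX WT and +KTS KO, varied over a narrower range than Irx3. XX WT libraries had 3.69 and 4.01 CPM and XY WT libraries 0.706 and 0.884. XX -KTS KO libraries had 2.09 and 2.10 CPM and XY -KTS KO libraries 2.25 and 1.86, so the -KTS KO groups of both sexes overlapped and lay between the WT groups. XX +KTS KO libraries had 1.53 and 0.389 CPM, and XY +KTS KO libraries 8.49 and 0.770, which spans the range from within XY WT to above XX WT.

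Cst12 was the one gene of the 4 that exceeded XX WT in every +KTS KO library, XX and XY. XX WT libraries had 11.5 and 12.5 CPM and XY WT libraries 3.80 and 3.90. XX +KTS KO libraries had 50.8 and 18.8 CPM, and XY +KTS KO libraries 130.5 and 27.9. None of these overlapped with XX WT. In -KTS KO gonads Cst12 had 0.0492 and 0.113 CPM (4 and 6 UMIs) in XX and 0.0282 and 0.0125 CPM (2 and 1 UMIs) in XY. Over both libraries, XX WT exceeded XX -KTS KO 162.5-fold (95% counting interval 88.2 to 339.4). XY WT exceeded XY -KTS KO 193-fold, on 3 UMIs, with an interval of 65.8 to 940.8 that covers counting error only. The same ratio for Foxl2 was 67.4 (50.1 to 92.9) in XX and 11.1 (6.395 to 20.8) in XY.

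**Figure D1:**
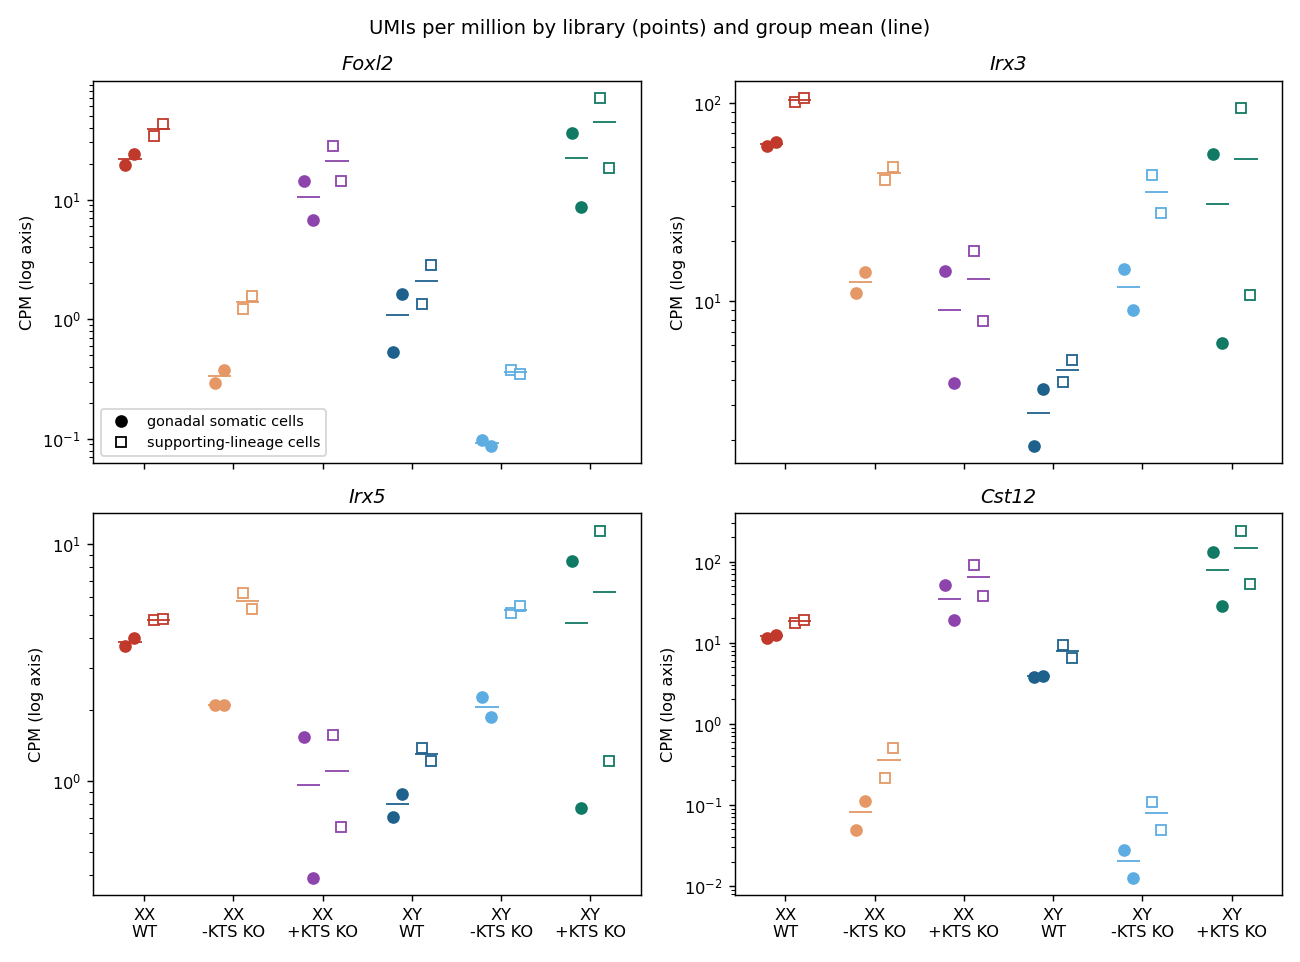
CPM (log axis) of each gene in the 12 libraries, as sums over gonadal somatic cells (filled circles) or supporting-lineage cells (open squares), with a line at the mean of the 2 libraries of each group. Cst12 is lowest in -KTS KO, where Irx3 and Irx5 remain. Foxl2 is lowest there in gonadal somatic sums, while in supporting-lineage sums XX -KTS KO overlaps XY WT, and XY +KTS KO is split by its 2 libraries.

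Restricting the sums to supporting-lineage cells separated the genes further. The lineage made up 57.4% and 56.8% of gonadal somatic cells in XX WT but only 20.04% and 18.7% of those of XX -KTS KO, with 23.2% and 22.9% for XY -KTS KO. Without the mesonephric mesenchyme-like cells and cluster 33 these shares were 57.5% and 57.1%, 24.25% and 21.2%, and 28.9% and 26.7%. Within the lineage, Irx5 of XX -KTS KO (6.19 and 5.30 CPM) and XY -KTS KO (5.09 and 5.46 CPM) lay above XX WT (4.78 and 4.82 CPM). Irx3 in the lineage was 40.5 and 47.3 CPM for XX -KTS KO, with 43.2 and 27.7 for XY -KTS KO, below the 100.7 and 104.9 of XX WT and above the 3.92 and 5.03 of XY WT. Foxl2 in the lineage stayed low, at 1.22 and 1.57 CPM for XX -KTS KO, with 0.375 and 0.348 for XY -KTS KO, against 34.2 and 43.0 in XX WT. XY WT had 1.34 and 2.85 CPM of it there and overlapped XX -KTS KO. Cst12 there was at most 0.497 CPM in -KTS KO against 17.7 and 19.1 in XX WT. So the supporting-lineage cells of -KTS KO gonads of both sexes carried Irx3 and Irx5 with little Foxl2 or Cst12. The lineage lay in different clusters in these groups, however. In XX WT 2226 of 3058 and 2201 of 3225 of its cells were in cluster 3, whereas XX -KTS KO had 865 of 873 and 731 of 735, and XY -KTS KO 1163 of 1173 and 1097 of 1105, in the unnamed cluster 6.

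Ratios between the genes, taken within 1 library, showed which pairs moved together. Supporting-lineage cells had 2.94 and 2.44 UMIs of Irx3 per UMI of Foxl2 in XX WT. For XX -KTS KO this ratio was 33.3 and 30.1, with 115 and 79.7 for XY -KTS KO, and XY WT had 2.92 and 1.77. In XX +KTS KO this ratio was 0.637 and 0.555, and in XY +KTS KO 1.33 and 0.578. Cst12 per UMI of Foxl2 was 0.517 and 0.446 in XX WT, and 3.21, 2.62, 3.43 and 2.91 in the 4 +KTS KO libraries. The +KTS KO libraries thus kept a similar Cst12 to Foxl2 ratio, above that of XX WT, although their Foxl2 levels differed by 4.92-fold and their Cst12 levels by 6.43-fold. In XY WT the ratio was 6.92 and 2.30, on 37 and 99 UMIs of Foxl2. Irx3 per UMI of Irx5 was 21.1 and 21.8 in XX WT, 2.84 and 4.17 in XY WT, 11.4 and 12.3 for XX +KTS KO, 8.21 and 8.76 for XY +KTS KO, and 5.07 to 8.94 across the 4 -KTS KO libraries.

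**Figure D2:**
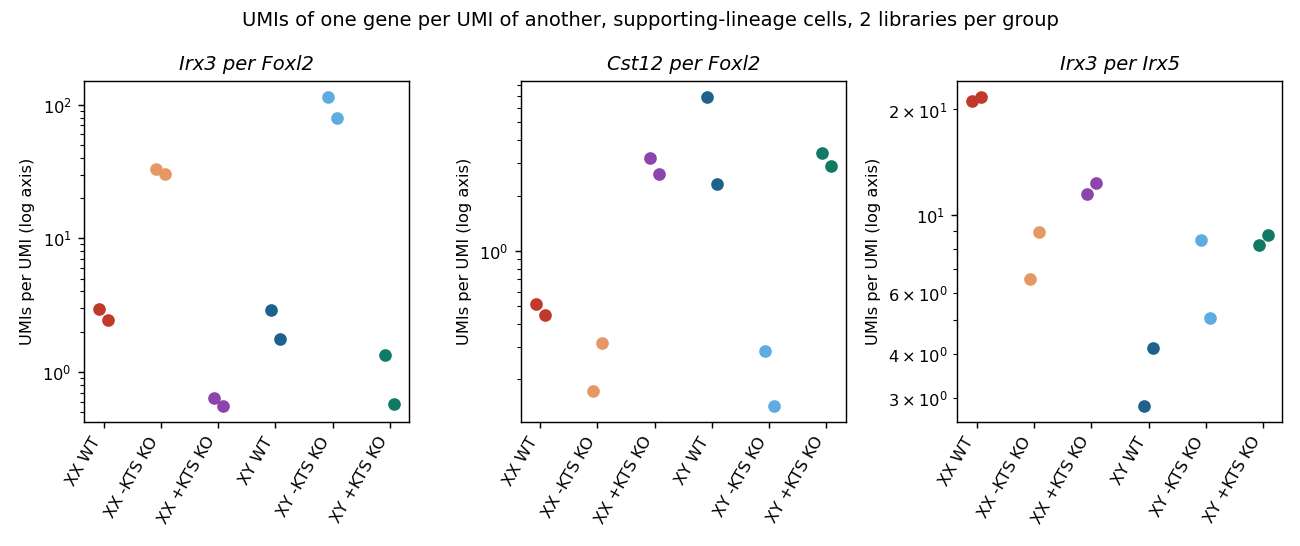
UMIs of the first gene per UMI of the second (log axis) in supporting-lineage cells, 2 points per group, 1 for each library. Cst12 per Foxl2 lies between 2.62 and 3.43 in all 4 +KTS KO libraries, and Irx3 per Foxl2 is highest in -KTS KO.

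The 4 +KTS KO libraries had the same order for all 4 genes: XX +KTS KO replicate 2 was lowest, then XY +KTS KO replicate 2, XX +KTS KO replicate 1, and XY +KTS KO replicate 1 highest. The highest exceeded the lowest 5.29-fold for Foxl2, 14.2-fold for Irx3, 21.8-fold for Irx5 and 6.94-fold for Cst12 in gonadal somatic cells. The order of these libraries by number of tail somites in the study's sample list was the same. With 1 +KTS KO library at each stage, stage and other differences between these libraries cannot be told apart.

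Fold changes were taken from one model of all 12 libraries fitted to gonadal somatic sums. Between XX WT and XY WT, the log2 fold change was 4.30 (SE 0.68) for Foxl2, 4.45 (SE 0.93) for Irx3, 2.21 (SE 0.88) for Irx5 and 1.56 (SE 0.61) for Cst12. All 4 were higher in XX WT, with no overlap between the groups. Of 17696 genes tested, 13.7% passed an FDR of 0.05 in this comparison, 6.53% higher and 7.18% lower in XX WT. These were 2426 genes, and 230 or 807 when the replicates numbered 1 or 2 of both groups were left out. Other pre-granulosa genes moved likewise. Of the 15 tested, 8 were higher in XX WT (Fst, Bmp2, Wnt4, Rspo1, Runx1, Lef1, Axin2 and Cdkn1b) and 0 were lower, with a median log2 fold change of 1.71 against 0.0157 over all genes. Runx1 and Nr0b1 of this list were also markers used to name pre-supporting-like clusters, so the list is not limited to pre-granulosa cells. Fst, which encodes the activin antagonist follistatin, had 525 and 486 CPM in XX WT and 1.25 and 10.97 in XY WT (log2 fold change 6.35, SE 1.22, adjusted p = 0.0086). All 12 Sertoli genes tested were lower in XX WT, with a median log2 fold change of -4.46, and 5 of 12 cycling genes were lower too. The lists were drawn up with earlier results of these data known, so they describe the groups and are no independent evidence of a direction.

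In XX -KTS KO against XX WT, Foxl2 and Cst12 had the largest differences of the 4. The log2 fold change was -5.97 (SE 0.77) for Foxl2, -7.23 (SE 0.94) for Cst12, -2.26 (SE 0.83) for Irx3 and -0.82 (SE 0.83) for Irx5. In supporting-lineage cells that of Irx5 was 0.37 (SE 0.70), so its sign depended on the cells summed. In this comparison 16.5% of all genes passed the FDR, 6.88% higher and 9.59% lower in XX -KTS KO. These were 2914 genes, and 317 or 556 without replicate 1 or 2 of both groups. Of 15 other pre-granulosa genes, 6 were lower and 0 higher: Fst, Runx1, Rhox8, Lef1, Nr0b1 and Cdkn1b (median of the list -1.15, of all genes 0.00909). The study reported Nr0b1 as raised in pre-supporting cells of XX -KTS KO, whereas the sums here cover all gonadal somatic cells. The supporting lineage was a smaller share of the cells summed in XX -KTS KO than in XX WT, and its part was not tested. Rhox8, an X-linked homeobox gene of supporting cells, was as near absent as Cst12, with 0.0369 and 0.0750 CPM against 25.4 and 32.7 (log2 fold change -9.01, SE 0.73, adjusted p = 0.00016). Wnt4 and Rspo1, which encode signals of the ovarian pathway, did not pass, with 421 and 207 CPM against 398 and 441 for Wnt4, and 237 and 244 against 205 and 162 for Rspo1. None of the 12 cycling genes passed.

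In XY -KTS KO against XY WT, the 4 genes divided by sign. The log2 fold change was -3.51 (SE 0.92) for Foxl2 and -7.52 (SE 1.14) for Cst12, but 2.09 (SE 0.86) for Irx3 and 1.34 (SE 0.87) for Irx5. In supporting-lineage cells those of Irx3 and Irx5 were 3.01 (SE 0.75) and 2.05 (SE 0.75). The background in this comparison was 23.6% of genes, 11.1% higher and 12.5% lower in XY -KTS KO. These were 4175 genes, and 1282 or 1285 without replicate 1 or 2 of both groups. The other pre-granulosa genes divided too, with 5 of 15 higher (Bmp2, Wnt4, Rspo1, Axin2 and Cdkn1b) and 3 lower (Rhox8, Nr0b1 and Esr2). The supporting lineage was a smaller share of the cells summed in XY -KTS KO than in XY WT, and its part was not tested. Wnt4 had 302 and 236 CPM in XY -KTS KO and 32.8 and 73.0 in XY WT (log2 fold change 2.34, SE 0.40, adjusted p = 0.0029). Of 12 Sertoli genes, 11 were lower, among them Sox9 and Amh, and 0 were higher. Of 12 cycling genes, 9 were lower in XY -KTS KO than in XY WT.

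In XX +KTS KO against XX WT, Cst12 alone of the 4 was higher, with a log2 fold change of 1.59 (SE 0.59). Foxl2 was at -0.98 (SE 0.58), Irx3 at -2.72 (SE 0.85) and Irx5 at -1.94 (SE 0.86). XX +KTS KO replicate 1 and replicate 2 differed widely: with the replicates numbered 1 of both groups left out the value for Cst12 was 0.62, and with those numbered 2 left out it was 2.19. For Foxl2 these values were -1.81 and -0.37. Of all genes, 5.12% passed the FDR here, 2.36% higher and 2.76% lower in XX +KTS KO. These were 906 genes, and 7 or 5 without replicate 1 or 2 of both groups. Of the other pre-granulosa genes, 3 of 15 were lower (Bmp2, Cdkn1b and Lgr5) and 0 higher. Fst was at 38.2 and 8.26 CPM against 525 and 486 and just missed the threshold (adjusted p = 0.051). Of the Sertoli genes, Amh and Dhh, which encode secreted signals, were higher, with 18.9 and 7.398 CPM of Amh against 0.270 and 0.373 in XX WT (log2 fold change 5.39, SE 0.73, adjusted p = 0.0044).

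In XY +KTS KO against XY WT, all 4 were higher: the log2 fold change was 4.26 (SE 0.68) for Foxl2, 4.22 (SE 0.66) for Cst12, 3.36 (SE 0.89) for Irx3 and 2.39 (SE 0.88) for Irx5. Without XY +KTS KO replicate 1 they were 3.04 (SE 0.53) for Foxl2, 2.86 (SE 0.46) for Cst12, 1.19 (SE 0.63) for Irx3 and -0.03 (SE 0.62) for Irx5. The rise of Irx5 therefore rested on that library, while Foxl2 and Cst12 of replicate 2, at 8.60 and 27.9 CPM, still lay above both XY WT libraries. The background was 12.6% of genes, 6.1% higher and 6.46% lower in XY +KTS KO. These were 2222 genes, and 987 or 3741 without replicate 1 or 2 of both groups. Of the other pre-granulosa genes 6 of 15 were higher (Wnt4, Rspo1, Runx1, Lef1, Axin2 and Cdkn1b) and 1 was lower, Lgr5. Of the Sertoli genes 11 of 12 were lower, as were 6 of 12 cycling genes. Sox9 had 46.6 and 5.995 CPM, against 157 and 246 in XY WT (log2 fold change -3.08, SE 0.71, adjusted p = 0.023).

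XX +KTS KO and XY +KTS KO libraries overlapped for all 4 genes. The log2 fold changes of XX over XY were -0.95 (SE 0.58) for Foxl2, -1.63 (SE 0.82) for Irx3, -2.12 (SE 0.86) for Irx5 and -1.06 (SE 0.58) for Cst12, and all 4 turned positive, between 0.28 and 0.55, without XY +KTS KO replicate 1. Of all genes, 0.0339% passed here, 0.0113% higher and 0.0226% lower in XX. These were 6 genes, with 572 at an unadjusted p under 0.05 and 27 called by DESeq2. None of the 15 other pre-granulosa, 12 Sertoli or 12 cycling genes passed. With 2 libraries per group that differed this much, a lack of calls does not show that the sexes are alike. Whether the effect of each mutation differed between the sexes was tested for genes of the lists, with 3.11% of genes passing for -KTS KO and 4.05% for +KTS KO. Of the other pre-granulosa genes, Wnt4, Bmp2, Lef1 and Cdkn1b passed for both mutations. Both tests share the same difference between XX WT and XY WT, so passing for both is not separate evidence.

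Within the supporting lineage, the genes were spread unevenly over the clusters. In cluster 3, the main pre-granulosa-like cluster of XX WT (4597 cells, led by Fst), the XX WT libraries had 29.5 and 38.5 CPM of Foxl2, 109 and 119 of Irx3, 5.018 and 5.5 of Irx5 and 20.7 and 21.97 of Cst12. Cluster 20, pre-supporting-like and led by Sprr2d, had more Foxl2 (62.8 and 81.2 CPM) and less Cst12 (7.11 and 6.49 CPM) in the same 2 libraries, at a similar Irx3 (105 and 116 CPM). Cluster 25, unnamed and marked by Pax8, had Foxl2 at 42.7 and 38.3 CPM but Irx3 at 10.0 and 22.5 CPM. Foxl2 was thus also carried by cluster 25, where Irx3 was lower than in cluster 3. In cluster 20 Cst12 was lower than in cluster 3, but Irx3 was not far from it. Cluster 25 was 2.97% and 7.46% of the gonadal somatic cells of XX WT. The clusters were drawn from other genes of these cells, so these differences are given without a test.

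Cells of the other groups showed further combinations. Cluster 6, unnamed and 99.8% from -KTS KO libraries, had 27.7 to 47.1 CPM of Irx3 and 5.13 to 6.21 of Irx5, with 0.350 to 1.58 of Foxl2 and 0.0500 to 0.499 of Cst12. Cluster 0, unnamed and led by Cyp11a1, Pnmt and Inha, held most +KTS KO supporting-lineage cells outside XY +KTS KO replicate 1. In its 3 larger libraries it had 13.9 to 28.4 CPM of Foxl2, 8.13 to 17.3 of Irx3 and 37.9 to 90.8 of Cst12. Cluster 9, pre-granulosa-like and led by Cst12 itself, had 72.7 CPM of Foxl2, 94.9 of Irx3, 11.4 of Irx5 and 239 of Cst12 in XY +KTS KO replicate 1. Its leading genes also included Fos, Fosb, Klf4 and Junb. None of the markers of either type was among them, and when cells were clustered on log-normalized values the cluster with these leading genes (3258 cells) was named pre-supporting-like instead, so its name depended on the clustering. In the Sertoli-like cluster 10, XY WT libraries had 8.73 and 4.39 CPM of Cst12 with 0.605 and 0.534 of Foxl2. Cst12 was thus not limited to pre-granulosa-like cells, since Sertoli-like cells of XY WT carried it too.

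**Figure D3:**
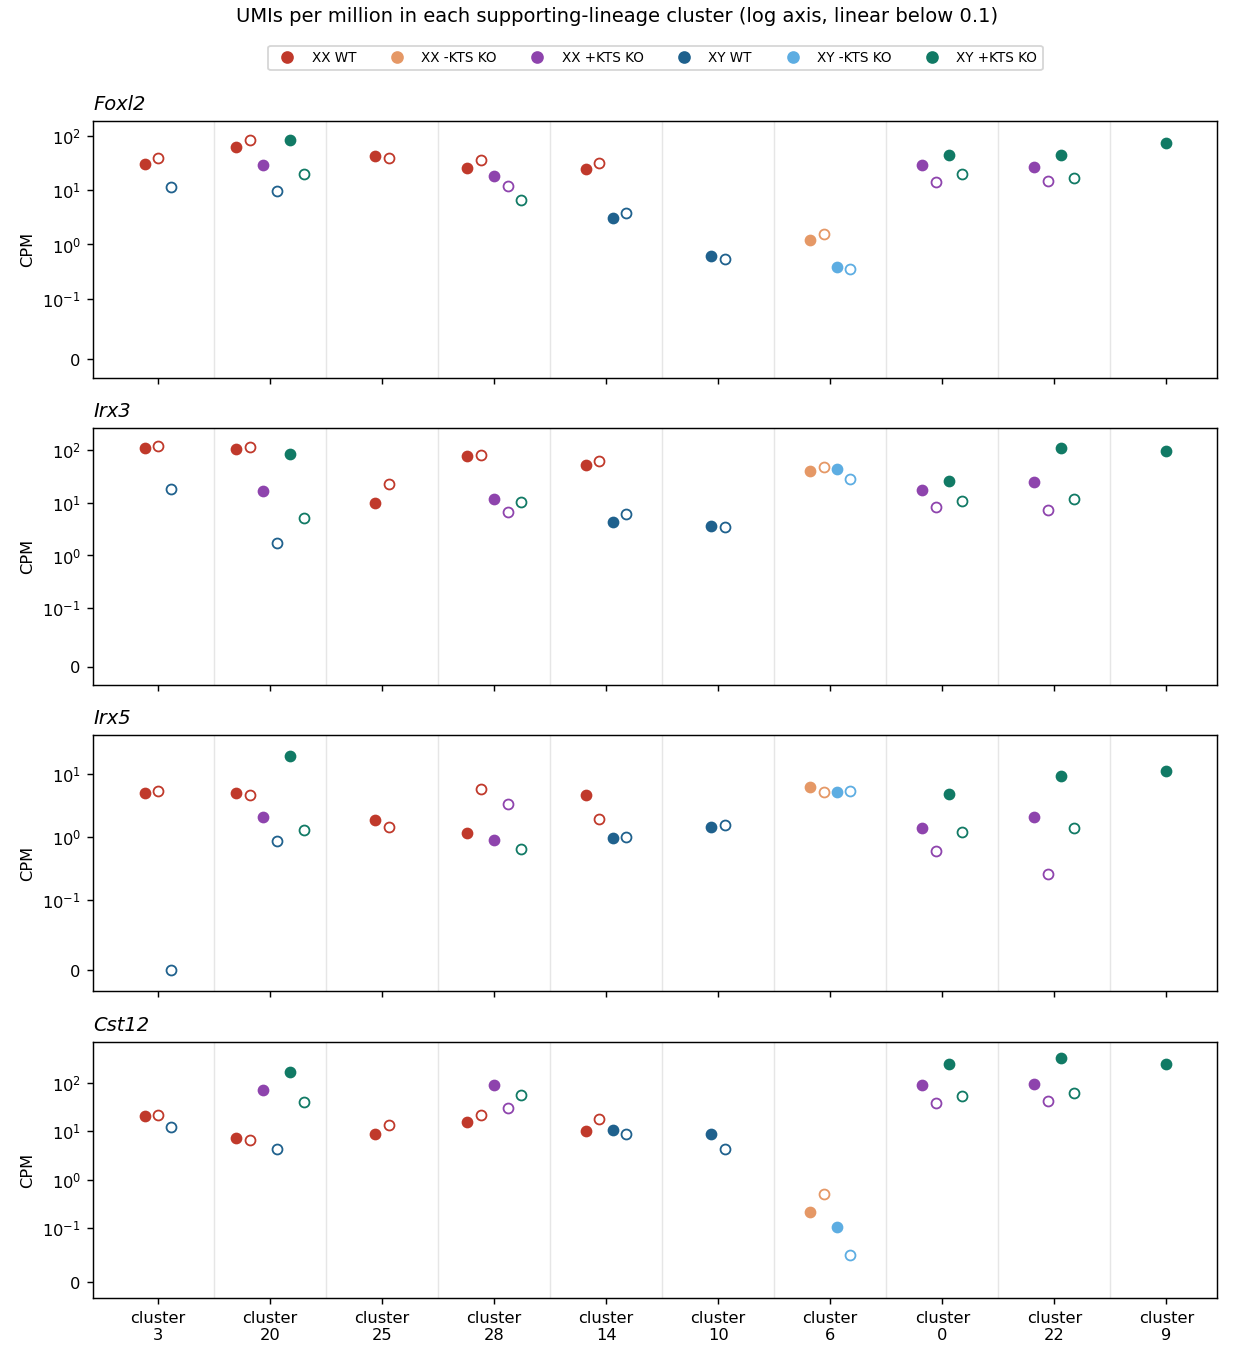
CPM (log axis, linear below 0.1) of each gene in the 10 supporting-lineage clusters, 1 point per library with at least 50 cells in the cluster, filled for replicate 1 and open for replicate 2. Cluster 6 (-KTS KO) keeps Irx3 and Irx5 but has Cst12 below 0.5. With the cells of each cluster pooled over libraries, Cst12 is highest in the +KTS KO clusters 0, 22 and 9.

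Outside the supporting lineage, the 4 genes differed in how confined they were. Supporting-lineage cells held 99.0% of the gonadal somatic Foxl2 UMIs of XX WT, 92.4% of Irx3, 85.4% of Cst12 and 69.0% of Irx5. The other cells included the unnamed clusters 4, 8, 15, 30 and 33. Pooled over libraries, these had 7.43, 13.2, 5.32, 24.4 and 0 CPM of Cst12, in that order. Cluster 30 scored highest for pre-supporting cells but had too few raised markers to join the lineage. The UMIs outside the lineage can therefore not all be assigned to other cell types. Coelomic epithelium-like cells of XX WT had 2.59 and 3.83 CPM of Irx5, below the 5.01 and 5.49 of pre-granulosa-like cells, but 0 and 0.391 of Foxl2. In +KTS KO the coelomic epithelium-like cells had 33.6 CPM of Cst12 in XY +KTS KO replicate 1 and 7.41 to 17.7 in the other 3 libraries, with 1.47 to 1.65 CPM of Foxl2 over the 4. Coelomic epithelium-like cells lay in different clusters by genotype. Cluster 12 was 98.5% from +KTS KO and cluster 7 was 99.4% from -KTS KO. Cluster 16, 86.45% from WT, had 1.94 CPM of Cst12 over all its cells. Interstitial progenitor-like cells of +KTS KO had 22.3 CPM of Cst12 in XY +KTS KO replicate 1 and 4.99 to 9.03 in the other 3 libraries, against 4.76 and 3.36 in XX WT and 0 in the -KTS KO libraries. These cells, too, lay in different clusters by group. Cluster 17, led by Btg2, Egr1 and Fos, had 1700 of its 1788 cells from XY +KTS KO replicate 1. Cluster 1 was 99.3% from -KTS KO, cluster 11 was 99.0% from WT and cluster 5 was 73.5% from +KTS KO.

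The number of cells with a UMI was compared after each cell was thinned to 5000 UMIs, which left out 4965 shallower gonadal somatic cells, 1590 of them from XY +KTS KO replicate 1. Foxl2 was found in 9.23% ± 0.89 (SD, n = 2) of gonadal somatic cells in XX WT, 0.162% ± 0.094 in XX -KTS KO, 5.07% ± 2.7 in XX +KTS KO, 0.553% ± 0.37 in XY WT, 0.0321% ± 0.016 in XY -KTS KO and 8.35% ± 6.6 in XY +KTS KO. Unthinned, the XX WT share was 16.7% ± 2.4. Irx3 was found in 17.2% ± 0.24 of XX WT cells, 4.07% ± 0.62 of XX -KTS KO, 3.46% ± 2.3 of XX +KTS KO, 1.33% ± 0.58 of XY WT, 4.10% ± 1.2 of XY -KTS KO and 9.14% ± 9.4 of XY +KTS KO. The SD of XY +KTS KO was as large as its mean because replicate 1 had 15.8% and replicate 2 had 2.52%.

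Irx5 was found in 1.71% ± 0.15 of XX WT cells, 0.931% ± 0.068 of XX -KTS KO cells, 1.07% ± 0.35 of XY -KTS KO cells and 0.362% ± 0.030 of XY WT cells. The +KTS KO shares, 0.398% ± 0.32 for XX with 1.79% ± 2.0 for XY, spread more widely. Cst12 was found in 4.24% ± 0.21 of XX WT cells, 10.8% ± 5.7 of XX +KTS KO, 1.49% ± 0.20 of XY WT and 18.0% ± 13 of XY +KTS KO, and in 0.0773% ± 0.076 and 0.0103% ± 0.015 of XX and XY -KTS KO. Cells taken to lack these genes were used for the background from free RNA. Over all libraries, blood-like cells (1148 thinned cells) had a UMI of Foxl2 in 0.174% (95% exact interval 0.0211 to 0.628), of Irx3 in 0.174%, of Cst12 in 0.348% (0.0950 to 0.890) and of Irx5 in 0 cells, which allows up to 0.261% (3 counts of the total). Germ-like cells had one of Foxl2 in 0.0938%, of Cst12 in 0.0625% and of Irx3 in 1.23% (0.979 to 1.54). For Irx3 this lay above the interval of blood-like cells (0.0211 to 0.628), so germ-like cells are not a clean background for Irx3. Free RNA differs between libraries. The +KTS KO libraries, where Cst12 was highest, were not taken alone. The part of free RNA in their Cst12 outside the supporting lineage was therefore not tested. The -KTS KO libraries were also taken alone. Germ-like cells there had a UMI of Foxl2 in 1 of 1919 cells (0.0521%, interval 0.00132 to 0.290) against 0.0839% (0.0459 to 0.141) of gonadal somatic cells. Cst12 was in 0 of them, which allows up to 0.156%, against 0.0359% of gonadal somatic cells. For both genes this difference was not detectable at this depth, and the 220 thinned blood-like cells had no UMI of any of the 4. The few UMIs of -KTS KO were not spread evenly: 42 of 44 Foxl2 UMIs and 10 of 10 Cst12 UMIs of XX -KTS KO lay in supporting-lineage cells, as did 14 of 14 and 3 of 3 in XY -KTS KO. In the XY WT libraries, 0.203% and 0.999% of germ-like cells had Irx3, against 0.913% and 1.74% of gonadal somatic cells. In the -KTS KO libraries 4.07% (3.78 to 4.38) of gonadal somatic cells had Irx3 against 1.04% (0.638 to 1.605) of germ-like cells. Endothelial-like cells had Irx3 in 5.57% (4.57 to 6.72) of 1849 cells but Cst12 in 0, so they are no background for Irx3. Median depths before thinning were 9791 to 18819 UMIs in gonadal somatic cells by library, and 35458 in germ-like and 25437 in blood-like cells (medians over libraries). Thinning removed a larger part of the UMIs of the deeper cells. The background shares may therefore be too low for gonadal somatic cells, and the part of depth was not tested.

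The number of UMIs in cells that carried a gene differed between groups. In supporting-lineage cells, a cell with Cst12 had on average 4.999 UMIs in XY +KTS KO replicate 1, 2.55 to 2.99 in the other +KTS KO libraries, 1.83 and 2.03 in XX WT and 1.46 and 1.52 in XY WT. A cell with Irx3 had 2.96 and 3.61 UMIs in XX WT, 2.82 and 3.08 for XX -KTS KO, 2.28 and 2.33 for XY -KTS KO, 1.69 and 1.54 for XX +KTS KO, 2.85 and 1.49 for XY +KTS KO and 1.09 and 1.42 for XY WT. These means are of unthinned cells, whose median depth in the supporting lineage was 11723 and 13869 UMIs in XX WT, 18335 and 15217 for XX -KTS KO, and 13052 and 17569 for XY -KTS KO, and the part of depth in them was not tested.

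At the level of single cells, the 4 genes were rarely found together. In XX WT, 4.94% and 5.19% of thinned gonadal somatic cells had 2 or more of the 4 genes and 73.4% and 72.4% had none. In XY +KTS KO replicate 1 these shares were 14.7% and 58.3%, and 11 cells there had all 4, which no cell of the other 11 libraries had. At such low counts, a missing UMI does not show that a gene was off.

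Co-detection was compared with the number of cells expected if the 2 genes were spread independently, within 1 library, in cells thinned to the same depth and where at least 5 cells were expected. Irx3 and Irx5 stood out. In supporting-lineage cells they occurred together in 1.94 and 2.18 times the expected number of cells in XX WT (34 cells against 17.5, and 38 against 17.4), 2.12 times in XY +KTS KO replicate 1 (58 against 27.4) and 2.37 times in XY -KTS KO replicate 1 (14 against 5.92). Of the XX WT cells with Irx5, 53.1% and 57.6% also had Irx3, against 26.8% and 25.8% of the rest. Foxl2 and Irx3 occurred together in 1.22 and 1.12 times the expected number of supporting-lineage cells in XX WT, and in 0.974 times that number in XY +KTS KO replicate 1.

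Foxl2 and Cst12 were together less often than expected in XX WT supporting-lineage cells, in 15 cells against 25.3 and in 25 against 35.3 (ratios 0.592 and 0.708). In +KTS KO the ratio was 0.915 and 1.35 in XX and 0.968 and 1.09 in XY. Over all gonadal somatic cells, which mix lineages that have and lack both genes, the XX WT ratios were 0.843 and 1.11. Irx3 and Cst12 lay near 1 in that lineage, at 1.13 and 1.11 in XX WT and 0.840 to 1.13 in +KTS KO. The points share libraries and cells and were not tested.

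**Figure D4:**
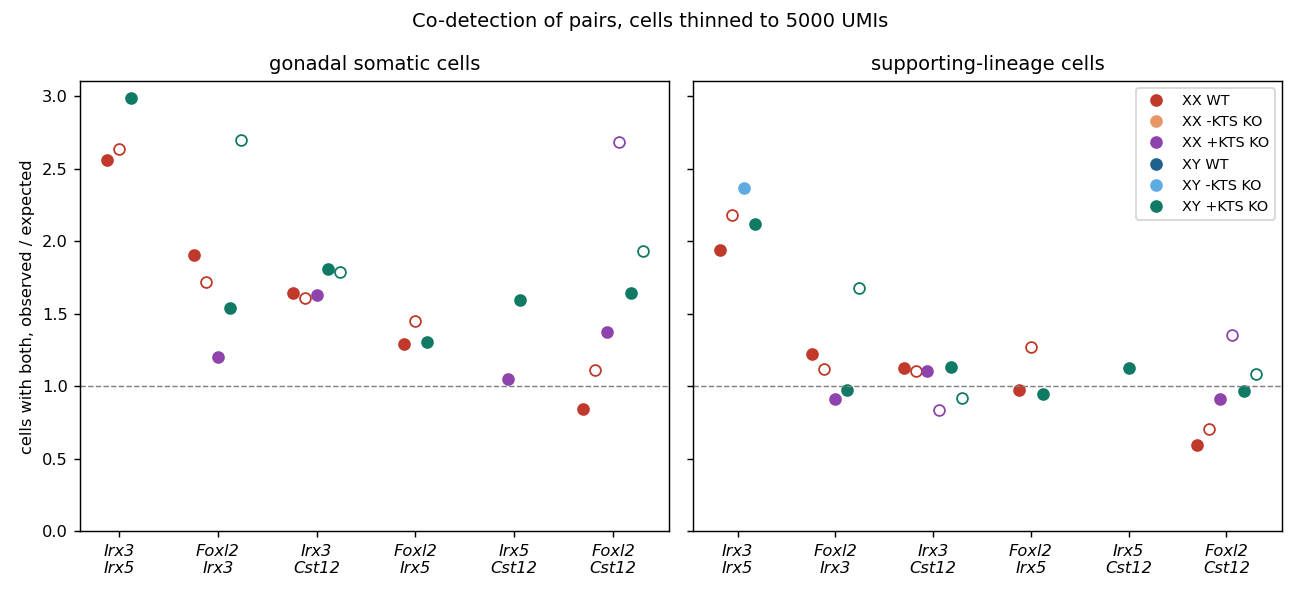
Cells with both genes of a pair, observed over expected, in each library with at least 5 expected cells, for gonadal somatic (left) and supporting-lineage cells (right) thinned to 5000 UMIs. Filled points are replicate 1 and open points replicate 2, and the dashed line marks 1. In the supporting lineage Irx3 with Irx5 lies at 1.94 or above in the 4 libraries shown, while Foxl2 with Cst12 lies below 1 in XX WT.

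What else differed between cells with and without a UMI of a gene was tested in pre-granulosa-like cells, with the library as a block. XX WT replicates 1 and 2 and XY +KTS KO replicate 1 had enough cells, and those of the last lay mostly in cluster 9, whose name depended on the clustering, so counts without it are given below. Cells with Foxl2 differed from the rest in 1008 of 11727 genes (8.6%), 438 higher and 570 lower. Cycling genes were lower in them, 8 of 12, with 0 higher and a median log2 difference of -0.65 against 0.011 over all genes. Clusters 4 and 8 (4269 and 3101 cells), led by mitotic and histone genes, were unnamed and outside the supporting lineage. Cells in those clusters did not enter the test, so it covers only the cells left in pre-granulosa-like clusters. Birc5, which encodes survivin and is expressed at mitosis, was 7.76 CPM in cells with Foxl2 and 34.3 without (log2 difference -1.94, SE 0.24, adjusted p = 1.3e-05). Mki67, which encodes the Ki-67 antigen, was at 1.30 and 6.06 CPM (-1.86, SE 0.47, adjusted p = 0.014), and Ccna2, a cyclin of S phase and mitosis, at 1.28 and 6.66 CPM (-2.22, SE 0.44, adjusted p = 0.0023).

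Of 14 other pre-granulosa genes, 7 were higher in the cells with Foxl2 (Fst, Cdkn1b, Rhox8, Rspo1, Runx1, Wnt4 and Kitl), while 2 were lower (Bmp2 and Gng13). Fst had 1154 CPM in cells with Foxl2 and 647 in cells without (0.87, SE 0.045, adjusted p = 6.7e-11). Cdkn1b, which encodes the cell cycle inhibitor p27, had 261 and 160 CPM (0.67, SE 0.066, adjusted p = 8.5e-07). Bmp2 had 45.8 and 69.0 CPM (-0.68, SE 0.13, adjusted p = 0.0016). The largest rises were in Cacna1d, Nrp1, Heg1, Plbd1 and Cntn4 and the largest falls in Birc5, Pclaf, Ccnb2, Cenpa and Calb1. The count of genes depended on the library left out, at 240 without XX WT replicate 1, 509 without XX WT replicate 2 and 1371 without XY +KTS KO replicate 1. Over all supporting-lineage cells, with 7 libraries, 11.1% of genes passed, and 10 of 12 cycling genes were lower in cells with Foxl2.

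Cells with Irx3 differed in 137 genes (1.17%), 59 higher and 78 lower, and 408 without XY +KTS KO replicate 1. Of the other pre-granulosa genes 5 of 14 were higher (Gng13, Cdkn1b, Fst, Kitl and Rhox8) and 0 lower. Gng13, a G protein gamma subunit gene, had 92.7 CPM with Irx3 and 57.4 without (0.70, SE 0.076, adjusted p = 4.4e-06), where in cells with Foxl2 it was lower (-0.47, SE 0.15, adjusted p = 0.050). Whether these 2 differences differ was not tested. None of the 12 cycling genes passed with Irx3. The Sertoli genes Ptgds (-0.81, SE 0.10, adjusted p = 4e-05) and Sox9 (-0.91, SE 0.15, adjusted p = 0.0011) were lower, the 2 of 7 Sertoli genes tested that passed, while over all supporting-lineage cells 1 of 9 was lower. The largest rises were in Vgll2, Gng13, Vav3, Fat4 and Efna1 and the largest falls in Plac8, Sparcl1, Ncam1, Igfbp5 and Tbx2. Irx5 itself was 13.3 and 4.29 CPM in cells with and without Irx3, in the same direction in 3 of 3 libraries, given without a test. Over all supporting-lineage cells, 3.52% of genes passed.

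Cells with Irx5 differed in 12 genes (0.102%), 4 higher and 8 lower, and in 5 without XX WT replicate 2 or without XY +KTS KO replicate 1. Sox9, the central transcription factor of Sertoli cells, had 9.5 CPM in cells with Irx5 and 29.96 in cells without (-1.62, SE 0.37, adjusted p = 0.014), and Ptgds was lower too. The cells with Irx5 numbered only 50 and 56 in XX WT and 98 in XY +KTS KO replicate 1. In gonadal somatic sums Sox9 had 3.96 and 8.33 CPM in XX WT and 46.65 in XY +KTS KO replicate 1. The part of that library in the Sox9 difference was not tested. The largest falls also included Dlk1, Meg3 and Itm2a. Gng13 was higher with Irx5 (0.77, SE 0.16, adjusted p = 0.0046), though in 2 of 3 libraries. Irx3 was at 227 CPM in cells with Irx5 and 104 in the rest. In supporting-lineage cells 0.193% of genes passed, and Sox9 was lower there as well (-1.38, SE 0.29, adjusted p = 0.0013).

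Cells with Cst12 differed in 27 genes (0.23%), 9 higher and 18 lower, and in 158 without XY +KTS KO replicate 1. Fst (-0.41, SE 0.069, adjusted p = 0.0058) was lower in them, the only one of 14 other pre-granulosa genes to pass. Cst8, the next gene downstream, was higher, at 164 CPM against 120 (0.47, SE 0.090, adjusted p = 0.014). The other largest rises were in Cenpa, Serpina3a, Rgs2 and Pkm, and the largest falls included Plac1, Utf1, Selenbp1 and Col18a1. Foxl2 itself was at 37.2 CPM in cells with Cst12 and 50.5 in the rest, and lower in 3 of 3 libraries. None of the 12 cycling genes passed. Over all supporting-lineage cells, with 8 libraries, 0.814% of genes passed, and Cst8 was higher in cells with Cst12 in 8 of 8 libraries (0.55, SE 0.059, adjusted p = 6.4e-11).

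**Figure D5:**
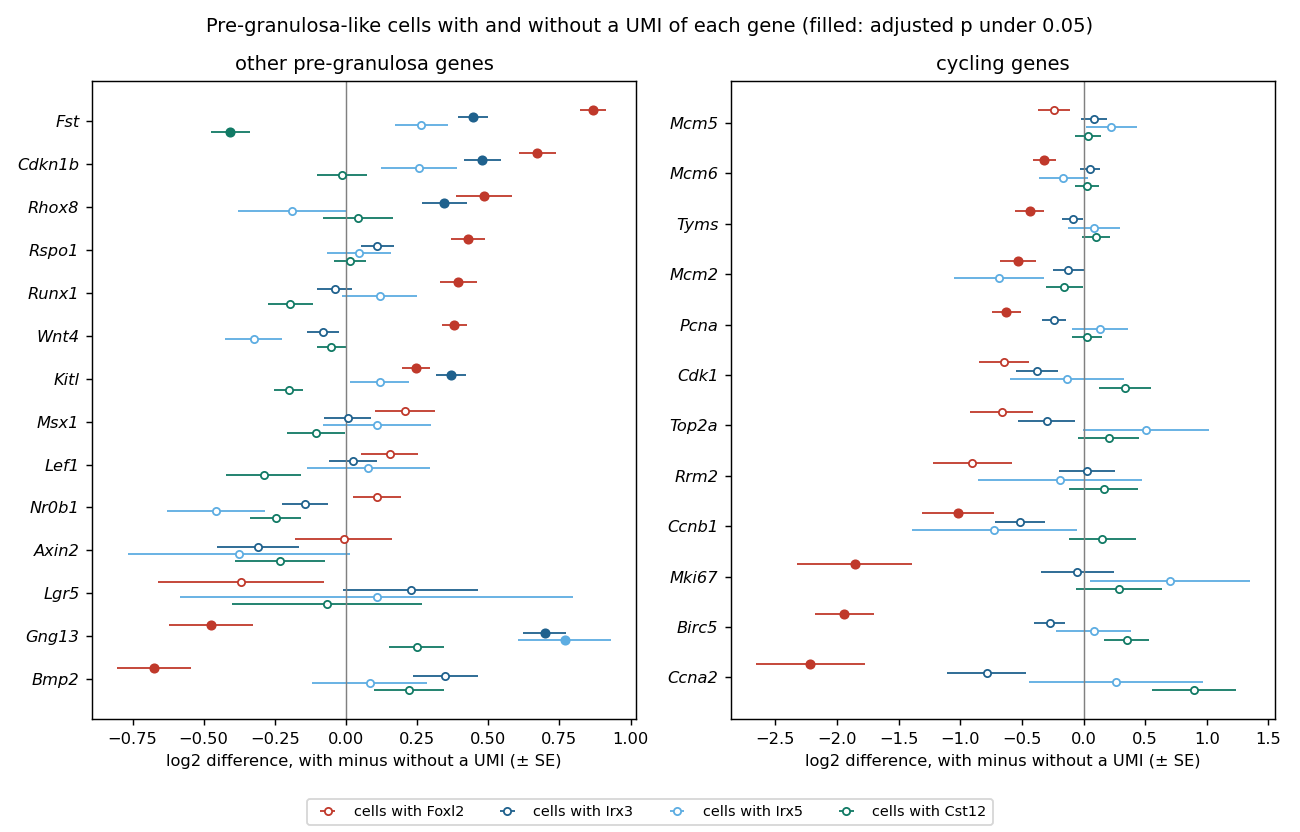
Log2 difference (± SE) of other pre-granulosa genes (left) and cycling genes (right) between pre-granulosa-like cells with and without a UMI of each of the 4 genes. Filled points have an adjusted p under 0.05. Fst and Cdkn1b are higher and Birc5, Mki67 and Ccna2 lower in cells with Foxl2, while Fst is lower in cells with Cst12.

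Relatives and neighbours of the 4 genes showed how far these patterns extended. Of the other Iroquois and TALE genes listed (Irx1, Irx2, Irx4, Irx6 and Mkx), only Irx6 and Mkx had counts enough to be tested, and neither passed in any of the 6 comparisons. Irx6 had at most 0.686 CPM in any library. Of 44 forkhead genes other than Foxl2, with Foxl2os among them, 26 were tested. In XX -KTS KO against XX WT 5 were higher (Foxc1, Foxk2, Foxo6, Foxp1 and Foxp4) and 2 were lower, Foxb1 and Foxl2os, against 6.88% of all genes higher and 9.59% lower. Mesonephric mesenchyme-like cells were 17.4% and 11.6% of the cells summed in XX -KTS KO against 0.188% and 0.599% in XX WT. Their part in these differences was not tested. Foxp1 had 77.6 and 56.2 CPM in XX -KTS KO and 21.0 and 32.5 in XX WT (log2 fold change 1.39, SE 0.26, adjusted p = 0.0067). Foxl2os, transcribed from the opposite strand and overlapping the start of Foxl2, was at 0.0123 and 0.0563 CPM against 0.601 and 0.827 (-4.42, SE 0.87, adjusted p = 0.010). In XY +KTS KO against XY WT it was higher (6.29, SE 1.05, adjusted p = 0.0075), at 1.24 and 0.312 CPM against 0 and 0.0161. UMIs from overlapping genes can be shared where strand is not used.

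Irx3os, which overlaps Irx3 on the opposite strand, had 3.42 and 3.46 CPM in XX WT and 0.246 and 0.131 in XX -KTS KO (-4.08, SE 0.80, adjusted p = 0.0081). In XY -KTS KO, where Irx3 was at 14.4 and 9.03 CPM, Irx3os was at 0.493 and 0.188. Crnde, 1.5 kb from Irx5, did not pass in any of these comparisons and ranged from 0.489 to 3.29 CPM. Fto, which encodes an RNA demethylase and lies 130 kb from Irx3, passed between XX WT and XY WT (0.57, SE 0.14, adjusted p = 0.029), with 33.4 and 35.2 CPM against 19.6 and 24.4.

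The cystatin genes around Cst12 did not follow it in +KTS KO. Of 13 cystatin genes listed, 7 were tested. In XY +KTS KO against XY WT 4 of 7 were lower (Cst8, Cst9, Cst11 and Cst13) and 0 higher, while Cst12 was 4.22 on the log2 scale in the other direction. Cst8, 5.24 kb from Cst12, had 33.9 and 30.4 CPM in XY +KTS KO and 251 and 110 in XY WT (-2.61, SE 0.40, adjusted p = 0.0040). Cst9, which marks Sertoli cells and lies 41.6 kb away, had 5.14 and 20.2 CPM against 358 and 442 (-5.01, SE 0.65, adjusted p = 0.0019). In XY -KTS KO against XY WT, Cst8, Cst9 and Cst11 were lower and Cst6 was higher. Of the 7 tested cystatin genes of the list, only Cst9 and Cst11 were lower in XX -KTS KO than in XX WT. Cst3, which encodes the widely expressed cystatin C and lies 78.2 kb away, had 383 to 1045 CPM in the 12 libraries and did not pass in any comparison. Counts of such related genes can be split between copies where sequences are alike. Of the 40 nearest genes (5 on each side of each gene), 24 were tested, and 7 were lower and 1 higher in XX -KTS KO than in XX WT, where 9.59% of all genes were lower and 6.88% higher.

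Genes with the most similar pattern over the 12 libraries were sought by the root mean square (RMS) difference of centred log2(CPM + 1) values. For Foxl2 these were Sp5 (RMS 0.459), Wfdc1, Sohlh1, Adam8 and Tex15, of 427 candidates. Sp5 had 61.2 and 65.4 CPM in XX WT, 6.33 and 2.93 in those of XX -KTS KO, then 36.5 and 17.2 for XX +KTS KO, 5.20 and 8.16 for XY WT, 3.72 and 2.22 for XY -KTS KO, then 56.1 and 32.7 for XY +KTS KO. For Cst12 they were Bmerb1 (0.714), Wfdc1, Papln, Adam8 and Nr2e3, of 249 candidates. For Irx3 they were Dcaf12l1 (0.606), Csgalnact1, Bmp2, Lrrn1 and Ahnak, of 716 candidates. For Irx5 they were Adamts19 (0.225), Gabrb1, Lrrn1, Il6st and Atp13a3, of 1857 candidates. Without XY +KTS KO replicate 1 the nearest gene was the same for Foxl2 (Sp5, RMS 0.365), Irx3 (Dcaf12l1, 0.479) and Cst12 (Bmerb1, 0.527), but for Irx5 it was Gabrb1 (0.163). Lrrn1 and Ahnak were then no longer among the 5 for Irx3, nor Lrrn1, Il6st and Atp13a3 for Irx5, Wfdc1 for Cst12 or Tex15 for Foxl2, so the place of these genes rested on that library. Among the 4 genes themselves, Irx3 and Irx5 were nearest (0.822), then Foxl2 and Cst12 (1.01), and Irx3 and Cst12 were farthest apart (2.35). Small RMS values of Irx5 go with its low level, which the added 1 CPM compresses.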

How the data were processed

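Gonads of 12 libraries were profiled by 10x Genomics 3′ scRNA-seq. The authors aligned the reads to mm10 with Cell Ranger 6.0 and deposited UMI counts per gene and barcode. The study's methods and the labels give different kit versions, so none is stated. From these counts, a barcode was kept from 1000 detected genes upwards if mitochondrial UMIs did not exceed 10%, and 7447 doublets were removed by Scrublet score at 0.8% per 1000 barcodes. Cells were clustered with the 4 genes left out (sctransform 0.4.2 and Seurat 5.3.0 in R 4.3.3, 3000 variable genes, 50 components, 20 neighbours, resolution 0.8) and clusters were named from fixed markers. UMIs were summed per library over gonadal somatic cells, and all 12 libraries were fitted with edgeR 4.0.16 (TMM, quasi-likelihood test, Benjamini-Hochberg FDR of 0.05). The sums of 53318779 to 96080770 UMIs per library set the precision, and intervals cover counting error only. For shares and co-detection, cells were thinned to 5000 UMIs with Python 3.11.15, numpy 2.4.6 and scipy 1.17.1. Cells with and without a UMI were summed per library, the library was the block, and the gene itself was left out. The scripts were tested on simulated data.

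Named genes are the 4 genes, all genes of the lists given, the 5 nearest in pattern to each (10 CPM in at least 1 group, pseudocount 1) and the 5 largest differences in each direction between cells with and without a UMI (from 20 CPM upwards, which genes of the lists did not need). The genes and the lists were chosen with earlier results of these data known. One gene of the lists is not reported here, and the counts leave it out. The labels give 2 replicates per group and do not say in each case that these were separate litters, so p-values measure the spread between these samples. Alternatives were DESeq2 1.42.0, no filter, other cell sets, doublets kept, other clustering, 10000 UMIs, the replicate block and leaving out replicates.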

Additional observations from a re-analysis of the deposited data

Results flagged for a closer look

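With 2 libraries per group, groups were too small to test for outlying samples. Effects of a mutation that went in opposite directions in XX and XY are given as the log2 fold change in XX minus that in XY. Such a difference also holds the gap between XX WT and XY WT, where all 4 genes were higher in XX. Mutant libraries of both sexes overlapped for Irx3 and Irx5 in -KTS KO and for all 4 genes in +KTS KO. The differences therefore describe shifts from unlike WT levels. For -KTS KO the difference was -4.35 for Irx3 and -2.16 for Irx5, where every XX mutant library lay below XX WT and every XY mutant library above XY WT. In supporting-lineage cells Irx5 of XX -KTS KO lay above XX WT instead (log2 fold change 0.37), so for Irx5 both sexes then went the same way. For +KTS KO it was -5.24 for Foxl2 and -6.08 for Irx3, on the same grounds, and -4.02 and -3.91 without XY +KTS KO replicate 1. These 4 differences were not tested, since the genes were selected on these data.

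For genes of the lists the difference, which again holds the gap between XX WT and XY WT, was tested as an interaction with edgeR. For -KTS KO it was -2.76 for Bmp2 (adjusted p = 0.0334), -1.75 for Lef1 (adjusted p = 0.0199), -2.69 for Wnt4 (adjusted p = 0.0313), -2.24 for Cdkn1b (adjusted p = 0.00404) and -5.38 for Irx3os (adjusted p = 0.0366).

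For +KTS KO it was -3.54 for Bmp2 (adjusted p = 0.0121), -2.19 for Lef1 (adjusted p = 0.00702), -2.85 for Wnt4 (adjusted p = 0.0239), -2.07 for Cdkn1b (adjusted p = 0.00396) and -5.94 for Irx3os (adjusted p = 0.0206). It was also -2.03 for Rspo1 (adjusted p = 0.0306), -2.88 for Axin2 (adjusted p = 0.0117), -7.62 for Fst (adjusted p = 0.0269) and -7.30 for Foxl2os (adjusted p = 0.0192). For Cst9, a Sertoli gene, it was 5.24 (adjusted p = 0.0109). Without XY +KTS KO replicate 1, which was left out after seeing the data, 9 of these 10 differences for +KTS KO and 5 of 5 for -KTS KO still passed, and that of Rspo1 did not (-1.64, adjusted p = 0.0614).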

How the results depend on the processing

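Of 268 fold changes of the 4 genes under alternatives, 261 kept their sign. The exceptions were Irx5 in XX -KTS KO against XX WT in supporting-lineage cells (0.37), Irx5 in XY +KTS KO against XY WT without replicate 1 (-0.13) or without XY +KTS KO replicate 1 alone (-0.03), and all 4 genes in XX +KTS KO against XY +KTS KO without XY +KTS KO replicate 1 (Foxl2 0.28, Irx3 0.55, Irx5 0.31, Cst12 0.31). The supporting-lineage cells and the fits without that library or without mesonephric mesenchyme-like cells were chosen after seeing the data. The causes were not tested.

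Counts of called genes moved by over 1.5 times as follows. Over all kept cells, 1486 genes passed in XX -KTS KO against XX WT, 2408 in XY -KTS KO against XY WT, 463 in XX +KTS KO against XX WT, 1236 in XX WT against XY WT and 10 in XX +KTS KO against XY +KTS KO. For XX +KTS KO against XX WT and for XX against XY +KTS KO, 1434 and 16 passed with no filter, 1526 and 27 with DESeq2, and 1364 and 23 without XY +KTS KO replicate 1. The last fit moved other counts by less, to 3617 for XX -KTS KO against XX WT, 5046 for XY -KTS KO against XY WT and 3171 for XX WT against XY WT. In supporting-lineage cells 3636 passed in XY +KTS KO against XY WT. Leaving out replicate 1 or 2 of both groups gave 317 to 556 genes in XX -KTS KO against XX WT, 1282 to 1285 in XY -KTS KO against XY WT, 5 to 7 in XX +KTS KO against XX WT, 987 to 3741 in XY +KTS KO against XY WT and 230 to 807 in XX WT against XY WT, with each lone library assumed to vary like the other groups. Deviations of same-numbered samples from their group means had correlations of -0.202 to 0.176. With 2 libraries per group these values can neither show nor exclude shared handling, and no pairing by number was assumed in the main fit. With the replicate block, which moved no count by over 1.5 times, 2762 genes passed in XX -KTS KO against XX WT (2645 with the numbers crossed), 3984 in XY -KTS KO against XY WT, 821 in XX +KTS KO against XX WT, 2004 in XY +KTS KO against XY WT, 2199 in XX WT against XY WT and 6 between the +KTS KO sexes.

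In XX WT the shares without thinning, at 10000 UMIs, over all kept cells and in the supporting lineage were 16.7%, 15.5%, 7.83% and 15.6% for Foxl2, 27.8%, 27.2%, 15.2% and 26.9% for Irx3, 4.43%, 3.44%, 1.51% and 2.12% for Irx5, and 8.998%, 7.69%, 3.59% and 6.31% for Cst12. Co-detection in XX WT was taken over gonadal somatic cells at 10000 UMIs, and at the lower main depth over pre-granulosa-like and supporting-lineage cells. In that order it was 1.56, 1.23 and 1.17 for Foxl2 with Irx3, and 1.23, 1.04 and 1.12 for Foxl2 with Irx5. It was 1.19, 0.653 and 0.650 for Foxl2 with Cst12. For Irx3 with Irx5 it was 1.99, 1.77 and 2.06, and for Irx3 with Cst12 1.46, 1.06 and 1.12. The first value of each pair of genes differs from the others in both depth and cells, so these values do not show the part of depth alone. Genes differing between cells with and without a UMI numbered 240 to 1371 (1 library left out) and 1912 (10000 UMIs) for Foxl2, 103 to 408 and, in the supporting lineage, 380 for Irx3, 5 to 9, 28 and 19 for Irx5, and 23 to 158, 190 and 95 for Cst12.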
